A study of Mus musculus with 34 samples.

Results

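The proteasome subunit genes were taken as every gene whose symbol is Psm, then a letter from a to g, then a number, with nothing after it. This rule used names only, and found 48 of the 49686 genes listed for zygotes and late 2-cell embryos and the same 48 among the 51734 listed for blastocysts. Of these, 19 carry the letters a or b of the core particle, 24 the letters c, d or e of the regulatory parts, and 5 the letters f or g. Mouse zygotes had been injected with mRNA for CHK1, a kinase of the DNA damage checkpoint, and the mRNA was either wild type (WT) or carried the change written R442Q. Single embryos were then sequenced: 11 zygotes (5 with WT and 6 with R442Q mRNA), 9 late 2-cell embryos (4 and 5) and 14 blastocysts (7 and 7). The zygotes and late 2-cell embryos are labelled as having had no treatment, whereas all 14 blastocysts had grown in medium with a Chk1 inhibitor at 30 nM. Every group therefore came from zygotes given extra CHK1 mRNA on top of the embryo's own gene. How much of it remained at the later stages is not known. Blastocysts without inhibitor or embryos without injection were not analysed here. Strain and age are not stated in the labels.

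The proteasome degrades proteins that carry ubiquitin chains. Its core is a barrel of outer alpha rings (Psma genes), which gate the entrance, and inner beta rings (Psmb genes), in which Psmb5, Psmb6 and Psmb7 hold the cutting sites. A regulatory particle caps the barrel: its base unfolds the substrate with a ring of ATPases (Psmc genes), its lid removes ubiquitin, and activators (Psme genes) can take its place. In eggs and early embryos this system clears maternal proteins as control passes to the embryo's own genome. In many cells the transcription factor NFE2L1 raises the subunit genes together when proteasome activity falls short, through motifs known as antioxidant response elements.

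Total counts ranged from 7183632 to 11296522 per zygote and from 5727956 to 8916343 per late 2-cell embryo, and the blastocysts were available as FPKM (fragments scaled to transcript length and library size) with depth unknown. Chek1 ranged from 4500 to 8233 CPM (counts scaled to library size) in WT zygotes and from 5834 to 7523 CPM in R442Q zygotes. In late 2-cell embryos its mean was 479 CPM in WT and 481 CPM in R442Q. Counts per gene do not separate the injected from the embryo's own mRNA. Markers were present in the stages they define: all 6 oocyte and zygote markers had a mean FPKM of at least 1 in both zygote groups, all 6 late 2-cell markers in both late 2-cell groups, and all 5 trophectoderm markers and all 3 epiblast markers in both blastocyst groups. Summed FPKM of 7 cumulus and granulosa markers was at most 3.36 in zygotes and reached 21.2 in 1 R442Q late 2-cell embryo. Each stage came as a table of its own, so stage and table cannot be told apart. In whole-embryo libraries, fewer cells of a type and less RNA per cell cannot be told apart either.

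Promoters of the 4 subunit genes on which the comparisons turn are shown so that the reader can see what precedes each start: Psmb5, with the largest rise of the standard core between zygote and late 2-cell; Psma7, with its largest fall; Psma5, with the largest difference in zygotes; and Psmc6, the member called at the late 2-cell stage. Each runs 5′ to 3′ from 250 bases before to 50 bases after the start, from RefSeq on build GRCm38. Positions are chr14:54617946-54618245 on the minus strand for Psmb5, chr2:180042415-180042714 on the minus strand for Psma7, chr3:108256676-108256975 on the plus strand for Psma5 and chr14:45329574-45329873 on the plus strand for Psmc6. Capitals mark matches, on either strand, to TGACNNNGC or TGAGNNNGC (the core of an antioxidant response element), CCAAT or TATAAA.
Psmb5: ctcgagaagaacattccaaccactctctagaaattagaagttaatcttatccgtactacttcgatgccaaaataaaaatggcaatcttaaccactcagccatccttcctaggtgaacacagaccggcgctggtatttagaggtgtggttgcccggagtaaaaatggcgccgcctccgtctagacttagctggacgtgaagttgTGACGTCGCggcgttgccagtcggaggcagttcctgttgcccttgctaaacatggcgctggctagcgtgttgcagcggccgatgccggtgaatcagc
Psma7: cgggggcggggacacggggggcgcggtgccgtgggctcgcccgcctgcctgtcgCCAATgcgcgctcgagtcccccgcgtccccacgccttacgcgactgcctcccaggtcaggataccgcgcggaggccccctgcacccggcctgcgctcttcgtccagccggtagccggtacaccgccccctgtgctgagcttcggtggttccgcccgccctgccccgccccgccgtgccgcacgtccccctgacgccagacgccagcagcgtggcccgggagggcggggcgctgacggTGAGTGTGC
Psma5: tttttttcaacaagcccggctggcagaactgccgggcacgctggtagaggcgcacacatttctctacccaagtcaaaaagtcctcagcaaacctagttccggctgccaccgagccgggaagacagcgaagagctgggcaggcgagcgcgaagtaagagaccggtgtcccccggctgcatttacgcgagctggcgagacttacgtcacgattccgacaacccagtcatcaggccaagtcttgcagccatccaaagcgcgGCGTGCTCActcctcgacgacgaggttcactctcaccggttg
Psmc6: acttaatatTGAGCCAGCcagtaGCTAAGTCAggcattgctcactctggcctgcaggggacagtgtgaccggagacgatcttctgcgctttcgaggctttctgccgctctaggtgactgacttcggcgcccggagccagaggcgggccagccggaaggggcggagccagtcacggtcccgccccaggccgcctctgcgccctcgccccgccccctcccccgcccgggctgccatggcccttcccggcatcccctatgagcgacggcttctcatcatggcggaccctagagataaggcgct
Psmb5 held TGACNNNGC from 47 bases before its start site, and Psmc6 held TGAGNNNGC 241 bases and TGACNNNGC 227 bases before its own. Psma7 held CCAAT and, after its start, TGAGNNNGC, and Psma5 held TGAGNNNGC after its start. RefSeq entries were matched for 40 of the 48 members (43 promoters). TGACNNNGC was present in 14% of these 43 promoters against 12.4% of all 32851 promoters, TGAGNNNGC in 30.2% against 17.6%, CCAAT in 32.6% against 37.4%, and TATAAA in 9.30% against 13.6%. The searched motifs are short, can overlap, and describe letters in this window only.

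The subunits of 1 core particle had very unequal measured levels in zygotes, and these were more even in late 2-cell embryos. Levels are compared between genes in FPKM, which divides by transcript length. In WT zygotes Psma7, an alpha ring subunit, led all members at 978 ± 118 FPKM (SD, n = 5), with Psmb2 of the beta ring next at 365 ± 37.0 and Psmd4, a ubiquitin receptor of the base, at 179 ± 19.3. The lowest Psma7 value in a WT zygote was 825 and the highest Psmb2 value was 425, so these top levels did not overlap. Lowest of the 14 standard core subunits was Psmb5, which carries the chymotrypsin-like cutting site, at 6.60 ± 1.06 FPKM. Psmb1 at 16.6 ± 1.48 and Psma3 at 20.9 ± 4.79 came next in that set. Within each WT zygote the highest of the 14 standard core subunits was 130 to 174 times the lowest, and 138 to 390 times in R442Q zygotes. Psmb5 was the lowest in all 11 zygotes, and its level is uncertain because 54.1% of its 50-base stretches occur in other genes. Without it, a choice made after seeing the data, the ratio was 54.8 to 69.9 in WT and 47.3 to 125 in R442Q zygotes.

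At the late 2-cell stage this ratio was 4.23 to 8.57 in the 4 WT embryos and 4.21 to 11 in the 5 R442Q embryos, below every zygote with or without Psmb5. It was 6.20 to 14.2 in WT and 8 to 11.4 in R442Q blastocysts. The SD of log2(FPKM + 1) across the 14 subunits was 1.76 to 1.93 in WT zygotes, 0.51 to 0.78 in WT late 2-cell embryos and 0.85 to 1.29 in WT blastocysts. Since each ratio is taken within a library, it does not depend on how the stages were scaled. The median of the 14 subunits was 95.8 FPKM in WT zygotes, 125 in WT late 2-cell embryos and 417 in WT blastocysts (medians over embryos), although the stages come from separately normalised tables.

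**Figure D1:**
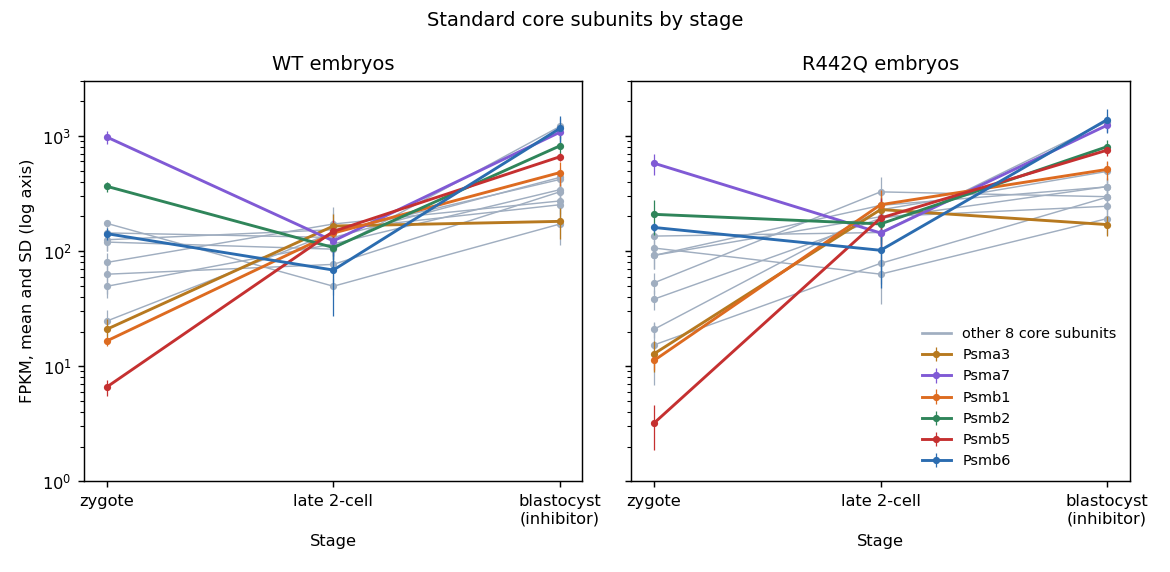
Mean FPKM with SD (log axis) of the 14 standard core subunits at the 3 stages, in WT (left; n = 5, 4 and 7) and R442Q embryos (right; n = 6, 5 and 7); 6 subunits are coloured. The lines spread from 6.60 to 978 FPKM in WT zygotes, draw together between 49.5 and 172 FPKM in WT late 2-cell embryos, and end between 172 and 1208 FPKM in WT blastocysts.

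The order of the subunits also differed between stages. Spearman's rho over the 14 core subunits was -0.49 between WT zygotes and WT late 2-cell embryos, -0.31 between WT late 2-cell embryos and WT blastocysts, and 0.19 between WT zygotes and WT blastocysts. R442Q embryos gave -0.49, -0.22 and 0.41 for the same pairs of stages. These values describe 14 genes of the same libraries and carry no test. WT late 2-cell embryos had their highest levels in the lid subunits Psmd11 (295 ± 127 FPKM, SD, n = 4) and Psmd7 (219 ± 22.1) and in Psma6 (172 ± 71.0), 3 levels whose ranges overlapped. In WT blastocysts the leaders were Psmb3 at 1208 ± 229 FPKM (SD, n = 7), Psmb6 at 1162 ± 317 and Psma7 at 1077 ± 141, again overlapping. R442Q blastocysts had the same 3 leaders.

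Among the 17 standard base and lid subunits the ratio of highest to lowest was 111 to 502 in WT zygotes, 8.55 to 22 in WT late 2-cell embryos and 3.99 to 10.5 in WT blastocysts, and 16.4 to 57 in R442Q late 2-cell embryos. The high zygote values rest on 1 gene. Without Psmd13, again a choice made after seeing the data, the ratio was 12.1 to 17.3 in WT zygotes and 6.27 to 15.3 in WT late 2-cell embryos, which overlap. It was 10 to 29 in R442Q zygotes and 13.1 to 19.6 in R442Q late 2-cell embryos. Psmd13, a lid subunit, was the lowest of them on average in zygotes, at 1.03 ± 0.393 FPKM in WT (SD, n = 5), and was listed at 0 in 1 R442Q zygote. Its mean was 19.7 FPKM (SD 5.49) among the 4 late 2-cell WT embryos and 136 FPKM (SD 21) among the 7 WT blastocysts.

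Tissue-specific forms of the core were low in zygotes, with means of at most 1.16 FPKM in either genotype, although Psmb9 ranged up to 4.85 FPKM in 1 R442Q zygote and up to 0.57 FPKM in WT zygotes. Psma8, the alpha subunit of the testis proteasome, averaged 0.108 FPKM in WT zygotes, 0.0225 in WT late 2-cell embryos and 1.04 in WT blastocysts. Psmb11, the thymus form, averaged 0.914, 1.99 and 0.0329 FPKM in the same groups. Psmb8, 1 of the subunits that replace the standard cutting subunits in the immunoproteasome, had 0 counts in all 5 WT zygotes, where 3 counts in each library would have averaged 0.364 CPM. It was listed at 0 in all 14 blastocysts. The other immunoproteasome subunits did not share that pattern. Psmb9 stood at 0.114 ± 0.255 FPKM in WT zygotes (SD, n = 5), 7.03 ± 7.82 in WT late 2-cell embryos (n = 4) and 35.0 ± 21.4 in WT blastocysts (n = 7). Psmb10 stood at 0.766 ± 0.843, 38.5 ± 11.3 and 19.8 ± 12.3 FPKM in the same groups.

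Between zygote and late 2-cell, 31 of the 47 members tested changed in WT embryos by edgeR's quasi-likelihood test with Benjamini-Hochberg adjustment, 18 upwards and 13 downwards. Over all 16199 genes tested, 61.2% were called (36.2% upwards and 25.0% downwards), so this share of members is close to the background. The median log2 change of the members was 0.30, against 0.34 for all genes. In R442Q embryos 38 of the 47 members changed, 26 upwards and 12 downwards, against 65.1% of all genes (35.3% and 29.8%), and the members' median was 1.21 against 0.22. By mean length over annotated transcripts, 27 of the 47 members fell in the shortest of 4 equal bins of transcript length. All genes of that bin had a median of 1.10 in R442Q and 0.82 in WT embryos. Both comparisons use different embryos, and the test of the difference between them is given after the genotype comparisons.

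In the core, 6 of the 7 beta ring genes changed in WT embryos, 4 upwards and 2 downwards. Psmb5 was at 5.29, 4.92, 3.60, 4.64 and 4.21 CPM in the 5 WT zygotes and at 80.8, 147, 84.6 and 112 CPM in the 4 WT late 2-cell embryos. Every late 2-cell value lay above every zygote value, and the log2 change was 4.45 ± 0.40 (SE; edgeR adjusted p 2e-09), or 3.54 ± 0.35 with a trend on transcript length and GC content removed from each library. The stretches that Psmb5 shares occur mainly in Gm3375. Psmb1 rose by a log2 of 3.07 ± 0.26, Psmb4 by 2.53 ± 0.29 and Psmb7, which carries the trypsin-like site, by 1.19 ± 0.27 (adjusted p 0.00064). Psmb2 fell by 1.84 ± 0.29 and Psmb6, which carries the caspase-like site, fell by 0.98 ± 0.42 with an adjusted p of 0.048. Psmb3 changed by -0.23 ± 0.27 and did not pass the threshold (adjusted p 0.46).

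In the alpha ring Psma7 was at 705, 749, 551, 651 and 750 CPM in WT zygotes and at 102, 109, 107 and 60.7 CPM in WT late 2-cell embryos. The stages did not overlap, and Psma7 fell by 2.94 ± 0.24 on the log2 scale (edgeR adjusted p 5.9e-10). Psma2 fell by 1.97 ± 0.31, whereas Psma3 rose by 2.76 ± 0.25 and Psma6 by 1.09 ± 0.29. The remaining alpha subunits, Psma1, Psma4 and Psma5, had log2 changes of -0.16, 0.18 and 0.27 and did not pass. Within the ring, 2 subunits rose and 2 fell.

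In the regulatory particle the 3 non-ATPase base subunits named Psmd fell in WT embryos: the scaffold subunits Psmd1 (by 1.56 ± 0.29) and Psmd2 (by 1.28 ± 0.24), and the ubiquitin receptor Psmd4 (by 0.75 ± 0.28). The further ubiquitin receptor of the base, Adrm1, rose by 1.15 ± 0.32 (edgeR adjusted p 0.0031). Of the 6 ATPases, Psmc3 rose by a log2 of 1.65 ± 0.27 and Psmc5 fell by 0.99 ± 0.30, and 4 did not pass. In the lid, 3 of 8 rose and none fell. Psmd13 rose by a log2 of 4.64 ± 0.72 (edgeR adjusted p 8.2e-06), from 0.867 ± 0.378 CPM (SD, n = 5) to 23.3 ± 5.40 CPM (SD, n = 4). It overlaps Sirt3 on the opposite strand, and the use of strand in counting is not stated, so its level is uncertain. The same holds for Psma4, Psmb7, Psmb8, Psmb9, Psmc3, Psmd9 and Psme1, which overlap AY074887, Nek6, Gm20496, Tap1, Slc39a13, Gm26745 and Emc9. Psmd14, the deubiquitinase of the lid, rose by 2.94 ± 0.26, from 13.2 ± 2.27 to 108 ± 14.1 CPM, and Psmd7, its partner, by 2.84 ± 0.25.

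Genes of assembly and alternative caps included several of the steepest changes. Psmd10, a chaperone of the base, was at 33.2, 32.1, 35.4, 31.4 and 30.6 CPM in WT zygotes and at 5.56, 2.11, 2.16 and 3.96 CPM in WT late 2-cell embryos, and it fell by 3.35 ± 0.42 (edgeR adjusted p 3.5e-07). Psmd9, another base chaperone, fell by 2.64 ± 0.27, while the chaperone Psmd5 rose by 1.09 ± 0.25. Psmg1, which helps to assemble the alpha ring, fell by 2.37 ± 0.35, whereas its partner Psmg2 rose by 3.40 ± 0.70 and Psmg3 by 1.88 ± 0.50. Psmf1, an inhibitor of the core, fell by 2.12 ± 0.22, from 130 ± 8.66 to 31.9 ± 1.87 CPM.

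The activators moved in opposite directions. Psme1 and Psme2 form the cap known as PA28 alpha/beta, which is induced with the immunoproteasome. Psme1 had 0 counts in all 5 WT zygotes and 51 to 100 counts in the WT late 2-cell embryos, at least 30.0-fold higher when 3 counts are set in each zygote library (edgeR adjusted p 5e-06). Psme2 rose by a log2 of 4.45 ± 0.65, from 1.5 ± 1.31 to 34.8 ± 14.8 CPM, and shares 28.3% of its 50-base stretches, mainly with Psme2b. Psmb10 rose by a log2 of 6.26 ± 0.81, from 0.256 ± 0.317 to 22.1 ± 6.14 CPM, or by 5.30 ± 0.76 with the trend on length and GC removed. Psme3, the nuclear activator PA28 gamma, fell by 1.53 ± 0.24, and Psme4 (PA200) changed by 0.06 ± 0.29 and did not pass. With Psme1 and Psmb8 set at their lower bounds, the median change of the members stayed at 0.30. The 2 leukocyte markers listed at these stages, Ptprc and Cd74, summed to 0 FPKM in WT zygotes and to 1.14 to 44.1 FPKM in WT late 2-cell embryos, with Ptprc at 0 in all of them.

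In R442Q embryos Psmb5 again had the largest rise and Psma7 the largest fall of the standard core. Psmb5 ranged from 1.22 to 3.83 CPM (median 2.49) in R442Q zygotes and was at 45.5 to 246 CPM (median 145) in R442Q late 2-cell embryos, without overlap, a log2 change of 5.70 ± 0.39 (edgeR adjusted p 1.6e-11). Psma7 fell by 2.19 ± 0.21. Psma5, which did not pass in WT embryos, rose by 2.18 ± 0.38 (adjusted p 2.8e-05), from 5.62 to 30.2 CPM in zygotes to 35.4 to 110 CPM at the late 2-cell stage. Among the ATPases, Psmc2 rose by 1.94 ± 0.26 and Psmc6 by 1.21 ± 0.22, and in WT embryos the 2 had changes of 0.30 and -0.31 that did not pass. Whether such pairs of changes differ is the interaction reported further on.

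In zygotes, R442Q embryos had lower measured levels of several proteasome subunit transcripts than WT embryos. Of the 40 members tested, 10 were lower and 0 were higher in R442Q zygotes (edgeR, adjusted p under 0.05), while 13.2% of all 12420 genes were called (6.92% lower and 6.30% higher). At an unadjusted p under 0.05, 19 members were lower and 5 higher, while 13.7% of all genes were lower and 13.4% higher. DESeq2 called 12 members lower and 1 higher, and 7.7% of all genes with a count. The 8 members not tested were Psmd13, Psme1, Psme2 and all 5 tissue-specific core genes. The median log2 difference was -0.32 over the members tested and 0.01 over all genes. Genotypes did not overlap, with R442Q lower, for 9 of the 40 members and for 4.67% of all genes, and with R442Q higher for 0 members and 4.04% of all genes.

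The alpha ring held 5 of these 10 calls, among its 7 genes, and all 7 had a negative log2 difference, between -0.39 and -1.91. Psma5 was at 80.2, 65.8, 53.7, 87.1 and 34.1 CPM in the WT zygotes, and in the 6 R442Q zygotes its lowest, median and highest values were 5.62, 17.8 and 30.2 CPM. All R442Q embryos lay below all WT embryos, and the log2 difference was -1.91 ± 0.33 (SE; edgeR adjusted p 0.0016). Psma5 (ENSMUSG00000068749.9; GRCm38 chromosome 3, 108256926 to 108279974) shares 49.1% of its 50-base stretches with other genes, mainly Gm8394, and overlaps 1700010K24Rik on the opposite strand, so its level is uncertain. Psma7 (ENSMUSG00000027566.15; chromosome 2, 180036374 to 180042433) ranged from 551 to 750 CPM in WT and from 285 to 562 CPM in R442Q zygotes, with a median of 444 in the latter. Only the top R442Q zygote and the lowest WT zygote overlapped, and the difference was -0.66 ± 0.14 (adjusted p 0.0061).

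Psma2 ranged from 333 to 386 CPM in WT and from 191 to 295 CPM in R442Q zygotes without overlap, a log2 difference of -0.56 ± 0.11 (edgeR adjusted p 0.0034). Psma1 differed by -0.54 ± 0.14 (adjusted p 0.019) with overlap, and Psma3 by -0.69 ± 0.21 (adjusted p 0.038) without it, at a level of only 7.99 to 23.0 CPM. In the beta ring Psmb2 was the 1 gene called, at 215 to 259 CPM in WT and 86.3 to 205 CPM in R442Q zygotes, with a log2 difference of -0.67 ± 0.18 (adjusted p 0.019). The cutting subunits did not pass: Psmb5 differed by -0.89 ± 0.35 (adjusted p 0.11), Psmb6 by 0.33 ± 0.12 (0.086) and Psmb7 by -0.23 ± 0.16 (0.41).

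Outside the core, the ATPase Psmc2 (ENSMUSG00000028932.7; chromosome 5, 21785283 to 21803787) was at 80.7, 86.6, 78.1, 71.6 and 65.8 CPM in WT zygotes, and at 34.6 to 57.8 CPM with a median of 40.3 in R442Q zygotes. The groups did not overlap, and the log2 difference was -0.85 ± 0.14 (edgeR adjusted p 0.0012). The base scaffold Psmd1 (ENSMUSG00000026229.17; chromosome 1, 86064387 to 86139151) was at 185 to 243 CPM in WT and 106 to 157 CPM in R442Q zygotes, again apart, with a difference of -0.79 ± 0.12 (adjusted p 0.00074). The lid subunit Psmd12 differed by -0.62 ± 0.14 (adjusted p 0.0076) without overlap. The inhibitor Psmf1 differed by -0.40 ± 0.13 (adjusted p 0.049) with overlap. Psmd1 overlaps Htr2b on the opposite strand.

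The members that did not pass were not all lower in R442Q zygotes. All 6 ATPases had negative differences, and Psmc4 (-0.44 ± 0.15, edgeR adjusted p 0.064) came nearest to the threshold after Psmc2. The chaperone Psmd5 was at 86.3 to 97.4 CPM in WT and at 49.1 to 80.9 CPM in R442Q zygotes, which did not overlap, with a difference of -0.37 ± 0.13 (0.068). Psmb1 also had no overlap (-0.43 ± 0.15, adjusted p 0.07). Positive values belonged to 8 members, among them the lid subunits Psmd8 (0.31 ± 0.11, 0.079) and Psmd3 (0.64 ± 0.28, 0.15) and the chaperone Psmg2 (1.54 ± 0.58, 0.091). Psmg2 rests on few counts, at 0.265 to 2.76 CPM in WT and 1.14 to 4.52 CPM in R442Q zygotes. Its relative Psmg3 had -0.92 ± 0.34 (0.083), so the 4 core chaperones were split evenly, 2 positive and 2 negative.

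**Figure D2:**
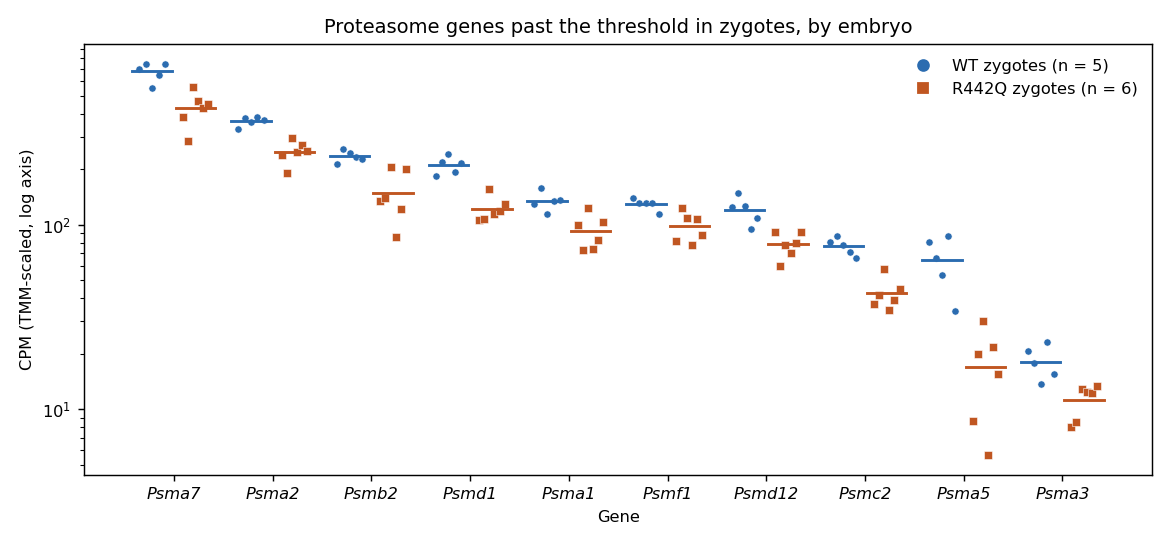
CPM (log axis) of the 10 proteasome genes past the threshold in zygotes, 1 point per embryo with a line at the mean, for WT (circles, n = 5) and R442Q (squares, n = 6). The means lie lower in R442Q for all 10, from Psma7 (681 against 431 CPM) to Psma3 at the low end, and the gap is widest for Psma5 (64.2 against 16.9 CPM).

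For the oocyte and zygote markers Gdf9, Bmp15, Zp3, Nlrp5, Oosp1 and Mos, the summed FPKM was 4697 to 6319 in WT and 3286 to 4728 in R442Q zygotes. These ranges overlapped slightly, a few genes can dominate such a sum, and single markers are not given here. All 6 had a mean of at least 1 and none was at 0. The late 2-cell markers, of which 2 of 6 reached a mean FPKM of 1 in WT and 4 of 6 in R442Q zygotes, summed to 5.18 to 6.61 in WT and 14.3 to 108 in R442Q zygotes. Their part in the result was not tested. When zygotes and late 2-cell embryos shared 1 model, and so 1 estimate of the spread, only Psma5 stayed past the threshold in zygotes, and 1.67% of all genes were called. Psma3 lost its call without WT replicate 1, 2 or 4 or R442Q replicate 1, 2 or 5, Psmf1 without any of WT replicates 1 to 4 or R442Q replicates 1, 4, 5 or 6, and Psma1 without WT replicate 2.

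At the late 2-cell stage 36 of the 46 members tested had a positive log2 difference and 10 a negative one, against 7321 and 6562 of all 13883 genes. With a trend on length and GC removed, 7 of the 14 standard core subunits were positive and 7 negative, as given below. Of the 46 members 1 passed, Psmc6, and 4.18% of all genes were called (1.22% higher and 2.95% lower in R442Q). Psmc6, an ATPase of the base (ENSMUSG00000021832.8; chromosome 14, 45329788 to 45349705), was at 58.7, 58.2, 45.4 and 59.4 CPM in WT embryos and at 94.9, 167, 93.7, 213 and 127 CPM in R442Q embryos. All R442Q values lay above all WT values, with a log2 difference of 1.33 ± 0.33 (edgeR adjusted p 0.036). In the model shared with zygotes 7 of 47 members passed, 6 higher and 1 lower, and 15.5% of all genes passed. The call of Psmc6 was lost without WT replicate 1, 2, 3 or 4 or R442Q replicate 2 or 4. Without R442Q replicate 3, 5 members and 6.76% of all genes passed. DESeq2 called 3 members, all higher, and 6.89% of all genes with a count. At an unadjusted p under 0.05, 9 members were higher and 1 lower, while 10.2% of all genes were higher and 10.7% lower. With late 2-cell embryos fitted by themselves, 0 members were called lower by edgeR or DESeq2.

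All 14 standard core subunits had a positive log2 difference, with a median of 0.45 in the alpha ring and 0.72 in the beta ring, and none of the 14 passed. Psma1 was at 119, 124, 136 and 137 CPM in WT and 289, 224, 171, 313 and 271 CPM in R442Q embryos. It did not overlap between genotypes, yet missed the threshold (log2 difference 0.97 ± 0.28, edgeR adjusted p 0.062). The same held for Psmf1, at 30.7, 31.9, 30.5 and 34.6 CPM in WT and 51.8, 56.6, 45.6, 82.7 and 79.9 CPM in R442Q embryos (0.99 ± 0.32, adjusted p 0.091). Psmc6, Psma1 and Psmf1 were the 3 members without overlap and higher in R442Q, against 4.39% of all genes, and 0 members were lower without overlap, against 7.58% of all genes. The 3 non-ATPase base subunits had negative values instead: -0.63 ± 0.39 for Psmd1, -0.84 ± 0.33 for Psmd2 and -0.20 ± 0.38 for Psmd4, with adjusted p from 0.16 to 0.82. The lid was mixed, with 5 of 8 genes positive. Psmd8 had the highest value in it, 1.16 ± 0.42 (adjusted p 0.13), at 92.4 to 166 CPM in WT and 96.9 to 493 CPM in R442Q embryos. Of the 7 cumulus and granulosa markers, 1 had a mean FPKM of at least 1 in each group. Their sum was 0.14 to 7.61 FPKM in WT and 2.45 to 21.2 FPKM in R442Q embryos, with Inha and Fshr at 0 in all. The 6 oocyte and zygote markers, all at a mean of at least 1, summed to 1212 to 3122 FPKM in WT and 1647 to 6893 FPKM in R442Q embryos. The 2 listed leukocyte markers summed to 1.14 to 44.1 and 2.65 to 100 FPKM, with Ptprc at 0 in all. The part of these markers in the result was not tested.

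**Figure D3:**
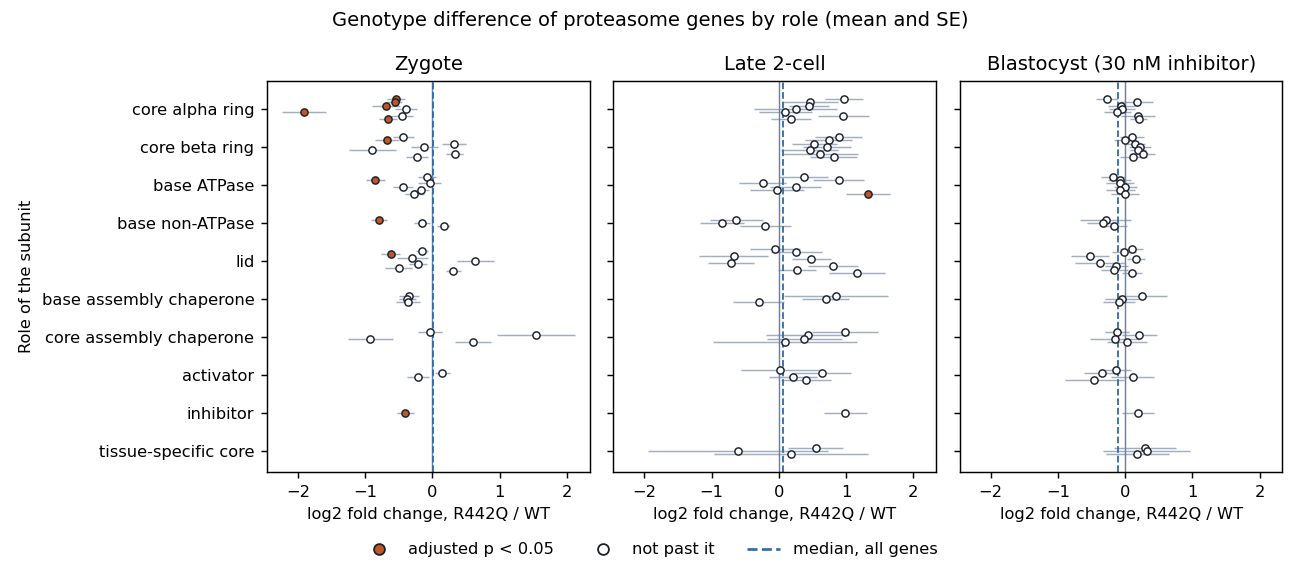
Log2 fold change of R442Q over WT with SE for each member tested, by role, in zygotes, late 2-cell embryos and blastocysts; filled points passed an adjusted p of 0.05 and the dashed line is the median of all genes. The 7 alpha ring genes lie left of 0 in zygotes and right of 0 in late 2-cell embryos, and all blastocyst points lie between -0.52 and 0.32.

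Transcript length moved with the genotype difference at this stage. Over all genes, log2 fold change and log2 mean transcript length had a Pearson r of -0.25, and fold change and GC content one of -0.28 (a description across genes, which are not independent). With all genes in 4 equal bins of length, the shortest bin had a median log2 difference of 0.54 and the longest -0.24. By mean length over annotated transcripts, 29 of the 46 members tested fell in the shortest bin and 38 in the shorter 2 bins. The median of the members was 0.42, against 0.07 for all genes and 0.54 for that shortest bin. Bin by bin from the shortest, the members had medians of 0.45 (29 members), -0.03 (9), 0.70 (7) and 0.89 (1), against 0.54, 0.09, -0.14 and -0.24 for all genes. With a trend on length and GC removed from each library, the median of the members was -0.06, 7 of the 14 core subunits were positive and 7 negative, and 0 members were called. Psmc6 then differed by 0.18 ± 0.29 (edgeR adjusted p 0.83). Summed late 2-cell markers were 115 to 730 FPKM in WT and 415 to 1986 FPKM in R442Q embryos, all 6 at a mean of at least 1, and the FPKM of a library summed to 712234 to 742246 in WT and 814376 to 976830 in R442Q. Their part in the result was not tested. In zygotes the same correlations were 0.04 and -0.03, and the shortest bin had a median of -0.03.

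**Figure D4:**
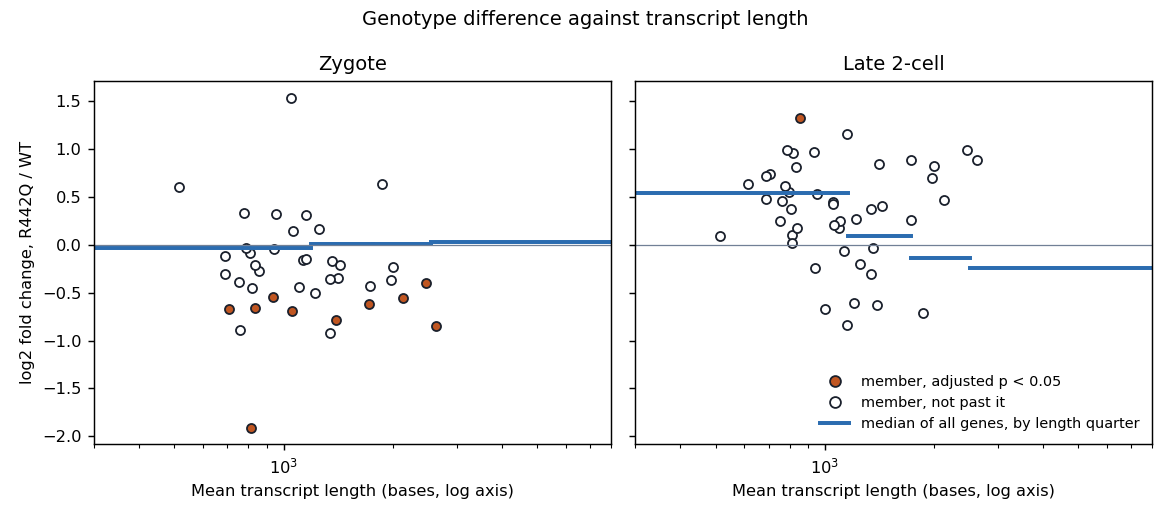
Log2 fold change of R442Q over WT against mean transcript length (log axis) for the members tested in zygotes (left, 40) and late 2-cell embryos (right, 46); bars give the median of all genes in each of 4 equal bins of length. The bars lie near 0 in zygotes and step from 0.54 down to -0.24 in late 2-cell embryos, where most members sit in the shortest bin.

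Whether the genotype difference itself changed between the stages was tested as an interaction in 1 model of both stages. It passed for 10 of 47 members, 9 with a larger value (R442Q minus WT) at the late 2-cell stage and 1 with a smaller value, while 10.1% of all 16199 genes passed (3.07% and 7.05%). The members' median was 0.68, that of all genes -0.16 and that of the shortest bin of transcript length 0.35. With size factors from relative log expression in place of trimmed means, the median of all genes moved up by 0.16 and the members' median was 0.85. The interaction was 1.43 ± 0.28 for Psma1 (edgeR adjusted p 0.0024), 1.52 ± 0.33 for Psmc6 (0.0051), 1.30 ± 0.29 for Psmf1 (0.0052) and 1.64 ± 0.38 for Psmc2 (0.0078). Psma3, Psma5, Psma6, Psmb1 and Psmb2 followed with values from 1.05 to 1.91 and adjusted p from 0.022 to 0.047. Calls were lost for Psma3 without any of WT zygotes 1, 4 and 5, R442Q zygotes 1 and 2, WT late 2-cell embryos 1 and 4 or R442Q late 2-cell embryo 4. They were lost for Psma5 without WT zygote 1 or 4 or WT late 2-cell embryo 1 or 3, and for Psma6 without WT zygote 1, 2 or 3, WT late 2-cell embryo 1, 3 or 4 or R442Q late 2-cell embryo 1. All 14 standard core subunits had a positive interaction, whether or not they passed. The lid subunit Psmd3 went the other way at -1.45 ± 0.45 (adjusted p 0.042), and its call was lost in 17 of 20 fits that left out 1 embryo. It overlaps Gm12356 on the opposite strand.

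With the trend on length and GC removed, the interaction passed for 2 members, Psmc2 and Psmf1, and for 6.82% of all genes. The mean lengths assigned to these 2 genes, 2626 and 2468 bases, were among the longest of the members. The part of these lengths in the result was not tested. Psmc2 had lower levels in R442Q zygotes, while at the late 2-cell stage it was at 82.4, 127, 88.3 and 105 CPM in WT and 316, 102, 91.9, 195 and 228 CPM in R442Q embryos. Those late 2-cell values overlapped and did not pass by themselves (log2 difference 0.89 ± 0.38, edgeR adjusted p 0.19). Leaving out WT late 2-cell replicate 1 took the count of members to 6 (8.41% of all genes), and leaving out R442Q late 2-cell replicate 3 took it to 17 (14.6% of all genes). R442Q late 2-cell replicate 3 had the lowest summed level of the members, 3096 CPM, against 4658 to 7638 CPM in the other 4 R442Q embryos and 3204 to 4915 CPM in the WT embryos.

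Blastocysts of both genotypes, all grown with the inhibitor, had similar values for the members. None of the 46 members tested passed (limma on log2(FPKM + 1), adjusted p under 0.05), 0 did so at an unadjusted p under 0.05, and 0.00885% of all 11297 genes passed. Log2 differences lay between -0.52 and 0.32, with a median of -0.01 over the members and -0.10 over all genes. The lowest p belonged to Psmd13 (-0.52 ± 0.28, unadjusted p 0.08, adjusted 0.73), at 109 to 172 FPKM with a median of 140 in WT and 37.8 to 145 FPKM with a median of 119 in R442Q blastocysts. Psma5, the member with the largest zygote difference, ranged from 220 to 497 FPKM (median 320) in WT and from 241 to 414 FPKM (median 295) in R442Q blastocysts, a difference of -0.12 ± 0.20. Psmc6 ranged from 70.9 to 175 FPKM in WT and from 96.8 to 171 FPKM in R442Q. Both genes overlapped fully between the genotypes. A difference that misses the threshold does not show equality.

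By role, the medians of the blastocyst log2 differences were -0.05 in the alpha ring, 0.15 in the beta ring, -0.07 in the ATPases, -0.29 in the non-ATPase base subunits and -0.08 in the lid. Among the caps, Psme1 ranged from 51.3 to 104 FPKM in WT and from 43.3 to 103 FPKM in R442Q blastocysts, and Psme2 from 56.2 to 139 and from 42.7 to 109 FPKM. Psme3 and Psme4 were lower per length, at means of 9.04 and 9.33 FPKM in WT and of 10 and 6.31 FPKM in R442Q blastocysts. The immunoproteasome gene Psmb9 spread widely within each genotype, from 12.9 to 66.5 FPKM in WT and from 6.98 to 62.5 FPKM in R442Q blastocysts. The spread between embryos was thus far wider than the difference of the means, 35.0 and 40.0 FPKM. The inhibitor Psmf1 stood at 50.1 ± 12.3 FPKM in WT and 57.9 ± 15.2 FPKM in R442Q blastocysts (SD, n = 7 each).

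Other genes of the pathway were read from a list of 37 names, older names included, of which 33 were listed at the early stages: ubiquitin genes and activating enzymes, deubiquitinases, shuttle factors, the unfoldase p97 with its cofactors, transcription and import factors, and further subunits and assembly factors. In zygotes 1 of 33 was higher and 4 were lower in R442Q, a share near the 13.2% of all genes called there (6.30% higher and 6.92% lower). The lower genes were Usp14 and the ubiquitin receptor Adrm1, which work on the regulatory particle, Ecpas, a proteasome scaffold, and Vcp, which encodes p97, with log2 differences of -0.75 ± 0.15, -0.63 ± 0.14, -0.60 ± 0.15 and -0.55 ± 0.13 (edgeR adjusted p 0.0045, 0.0068, 0.016 and 0.0092). Ubb, a polyubiquitin gene, was higher by 0.39 ± 0.12 (adjusted p 0.045). Pomp, which assembles the core, stood at a mean of 68.3 CPM (SD 3.74) in the 5 WT zygotes and of 68.6 CPM (SD 5.64) in the 6 R442Q zygotes. The call of Ubb was lost in 7 of 11 fits that left out 1 embryo (WT replicate 1, 2, 4 or 5 or R442Q replicate 1, 5 or 6) and in 13 of 19 alternatives in all, and that of Ecpas without WT replicate 2. In the model shared by both stages none of these 5 passed.

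At the late 2-cell stage 2 of 32 list genes tested were lower in R442Q and none was higher, while 2.95% of all genes were lower and 1.22% higher. Nfe2l1 was at 127 to 160 CPM in the 4 WT embryos and at 22.3 to 49.6 CPM in the 5 R442Q embryos. The groups lay far apart, with a log2 difference of -2.14 ± 0.32 (edgeR adjusted p 0.0047). In zygotes the same gene was level in CPM, with a mean of 75.2 in the 5 WT embryos (SD 11.8) and of 75.1 in the 6 R442Q embryos (SD 15.9). Its mean zygote FPKM was 38.7 (SD 15.9) in WT and 27.0 (SD 7.24) in R442Q. The interaction was -2.23 ± 0.33 (edgeR adjusted p 0.00022). With the trend on length and GC removed Nfe2l1 still passed, at -1.47 ± 0.28 in late 2-cell embryos (edgeR adjusted p 0.018) and -1.52 ± 0.29 in the interaction (0.0029). Vcp was at 313 to 456 CPM in WT and at 93.3 to 172 CPM in R442Q embryos without overlap (-1.46 ± 0.28, adjusted p 0.013), a call lost without WT replicate 2 and with the replicate number as a block (adjusted p 0.061). In blastocysts Nfe2l1 ranged from 8.60 to 20.4 FPKM in WT and from 5.68 to 18.2 FPKM in R442Q embryos, and 0 of 33 list genes passed.

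**Figure D5:**
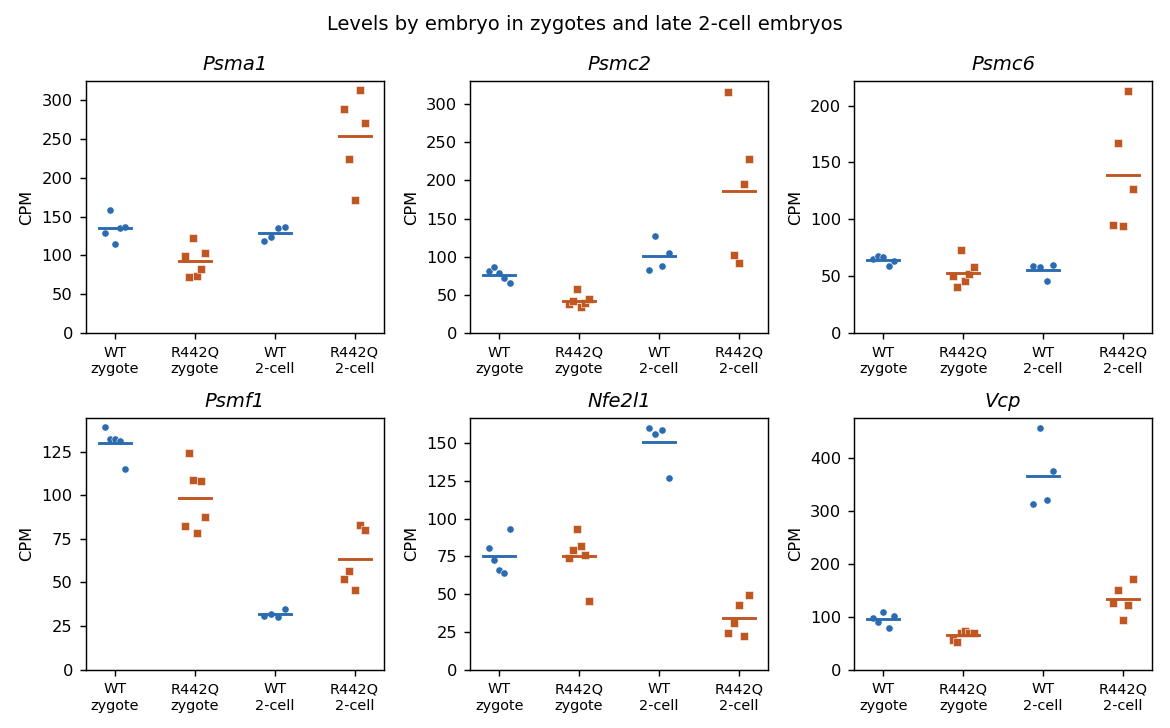
CPM by embryo, with a line at the mean, for 4 proteasome genes (Psma1, Psmc2, Psmc6 and Psmf1) and for Nfe2l1 and Vcp in WT and R442Q zygotes and late 2-cell embryos. The 4 proteasome genes have lower means in R442Q zygotes and higher means in R442Q late 2-cell embryos, and Nfe2l1 and Vcp have lower R442Q values at the late 2-cell stage without overlap.

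Between zygote and late 2-cell, 14 of the 33 list genes rose and 5 fell in WT embryos, while 36.2% of all genes rose and 25.0% fell. Rps27a, whose product carries a ubiquitin unit, had the largest rise of the list, by 5.20 ± 0.42 on the log2 scale, from 4.56 ± 0.97 CPM (SD, n = 5) to 180 ± 70.3 CPM (SD, n = 4). Ubb, at 1307 ± 128 CPM in WT zygotes and 1786 ± 160 CPM in WT late 2-cell embryos, did not pass (log2 change 0.35 ± 0.24, edgeR adjusted p 0.2). The largest falls were in Ngly1 (log2 change -2.86 ± 0.57), an enzyme that acts on NFE2L1, and Ecpas (-2.71 ± 0.29). In R442Q embryos 18 rose and 11 fell, against 35.3% and 29.8% of all genes. Nfe2l1, which rose by 0.91 ± 0.24 in WT, fell by 1.32 ± 0.23 in R442Q embryos.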

How the data were processed

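RNA of single mouse embryos was made into cDNA with SMART-seq2, cut with Tn5 and sequenced on HiSeq X-10, per the labels' protocols. The authors deposited estimated counts and FPKM per gene for zygotes and late 2-cell embryos and FPKM for blastocysts. RSEM and mm10 are named in the submitters' processing notes, and the use of strand is not given in the sources used here. Estimated counts were rounded and tested with edgeR 4.0.16 (quasi-likelihood, TMM scaling, filterByExpr with a minimum count of 10) in R 4.3.3, each stage by itself. Stage changes and the interaction came from 1 model of all 4 early groups. Blastocysts were tested with limma 3.58.1 on log2(FPKM + 1), which understates fold changes of low genes, where 7 or more of 14 embryos reached an FPKM of 1. P-values were Benjamini-Hochberg adjusted over all genes tested, at a threshold of 0.05. CPM were scaled by TMM within each stage.

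Alternatives were other size factors, no filter, DESeq2 1.42.0, limma on FPKM, another pseudocount, a replicate block, removal of a trend on transcript length and GC, 1 shared model, and each embryo left out. Lengths, positions and 50-base stretches shared with other genes came from GENCODE on GRCm38, whose symbols covered 98.4% of the early tables. Each length was an unweighted mean over all annotated transcripts, and can differ from the length behind the FPKM. Psme4 was given 1433 bases and Psmc2 2626. Yet WT zygotes averaged 73.2 CPM and 13.6 FPKM for Psme4, and 76.6 CPM and 49.3 FPKM for Psmc2, which makes Psme4 the longer. The effect on the length bins and the removed trend was not tested. A test was run on simulated data whose spread between embryos was assumed, not estimated from these embryos. It recovered 48.5% of log2 changes of 1 and 98.9% of 2 in zygotes, and 26% and 95.8% in late 2-cell embryos. It recovered 9.09% and 73.7% in the interaction, and 34.7% and 100% in blastocysts. The shares for the real embryos can differ. Members named were those past the threshold between genotypes or in the interaction, the 5 largest rises and falls between stages at a mean of at least 10 CPM, the 3 highest and lowest levels per stage, and the cutting, immunoproteasome, thymus and germ cell subunits, activators and inhibitor whatever their values. The remaining members were added to fill each role. Some genes of the pathway list are not reported here. Members and lists were chosen with earlier results of these data known. Separate cultures or animals behind the embryos are not stated, so p-values measure the spread between these embryos.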

Additional observations from a re-analysis of the deposited data

Results flagged for a closer look

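In 4 of 82 sets of 4 to 6 early embryos tested (1 named member in 1 group), the lowest embryo lay farther from the rest than a 95% limit on such gaps, a limit that chance passes in about 1 in 20 sets. Psmg1 stood at 27.1 CPM in R442Q zygote replicate 4, where the next lowest embryo had 53.1 CPM, and at 8.80 CPM in R442Q late 2-cell replicate 2, where the next had 23.2 CPM. Psmc6 stood at 45.4 CPM in WT late 2-cell replicate 3, against 58.2 CPM in the next. Psma7 stood at 60.7 CPM in WT late 2-cell replicate 4, against 102 CPM in the next.

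The genotype difference (R442Q minus WT, log2) was tested to differ between late 2-cell embryos and zygotes, with edgeR adjusted p from 0.00022 to 0.047, for 15 genes. Of 47 members tested, 9 had larger and 1 had smaller values, and of 33 pathway list genes 3 had larger and 2 smaller values. Over all 16199 genes, 3.07% had larger and 7.05% smaller values. Larger values at the late 2-cell stage were found for the alpha ring genes Psma1 (1.43), Psma3 (1.05), Psma5 (1.91) and Psma6 (1.31), the beta ring genes Psmb1 (1.23) and Psmb2 (1.31), the ATPases Psmc2 (1.64) and Psmc6 (1.52), and the inhibitor Psmf1 (1.30). Of the other pathway genes, the small subunit gene Sem1 (1.56) and the deubiquitinases Uchl5 (1.36) and Usp14 (1.05) also had larger values, and none of these 3 passed with the trend on length and GC removed (Sem1 1.22, adjusted p 0.1, Uchl5 0.49, adjusted p 0.42, Usp14 0.52, adjusted p 0.38). Of the 9 members with larger values, Psmc2 and Psmf1 passed with that trend removed. Smaller values were found for the lid subunit Psmd3 (-1.45), the transcription factor Nfe2l1 (-2.23) and Vcp (-0.99), whose call was lost in 12 of 20 fits that left out 1 embryo. For Usp14 the call was lost in 6 of 20 such fits, and for Sem1 in 1.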

How the results depend on the processing

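With zygotes and late 2-cell embryos in 1 model, 1 member was called between genotypes in zygotes and 7 at the late 2-cell stage (1.67% and 15.5% of all genes). Limma on log2(FPKM + 1) called 16 of 44 and 2 of 47 (13.9% and 4.6%). DESeq2 called 3 at the late 2-cell stage (6.89%). Removing the trend on length and GC gave 13 calls in zygotes (11 lower and 2 higher, 14% of all genes), 0 at the late 2-cell stage (2.36%) and 2 in the interaction (6.82%). With the replicate block added it gave 8 in zygotes (10.5%) and 0 at the late 2-cell stage (0.252%). Replicate numbers are those of the sample titles, which differ in part from the embryo numbers in the sample descriptions of the early stages. Correlations of same-numbered embryos ran from -0.17 to 0.21. Because of the renumbering, neither these values nor the block can show whether embryos were paired. The replicate block gave 9 calls in zygotes (9.8% of all genes), 0 at the late 2-cell stage (0.418%), 0 in blastocysts (0%), 31 and 36 between stages in WT and R442Q (57.7% and 60.8%), and 6 in the interaction (6.7%). Leaving out 1 embryo at a time gave 7 to 13 calls in zygotes (8.88% to 14.2% of all genes) and 0 to 5 at the late 2-cell stage (0.967% to 6.76%). It gave 0 in blastocysts (0% to 0.272%) and 6 to 17 in the interaction (6.76% to 14.6%). Between stages it gave 29 to 31 in WT (56.2% to 64.2%) and 36 to 41 in R442Q (62.7% to 66.2%). No named gene that was called changed direction. Of Nfe2l1, the late 2-cell call was lost with block and trend together (adjusted p 0.069). Blastocyst depth is unknown. Late 2-cell groups of 4 and 5 embryos and their spread limit what could be detected there, and by how much was not measured. With an assumed spread, 26% of simulated log2 changes of 1 were recovered at that stage.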
